A study of Mus musculus with 6 samples.

Results

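The genes described are 10 transcripts of the mouse metalloproteinase system: the matrix metalloproteinases Mmp2, Mmp8, Mmp9, Mmp12, Mmp13, Mmp14 and Mmp19, and the tissue inhibitors Timp1, Timp2 and Timp3. They were taken by gene symbol, and all 10 were found among the 53647 genes of the deposited table. The RNA came from macrophages of pancreatic ductal adenocarcinoma grown orthotopically, that is in the pancreas itself, of C57BL/6 mice. The cells were sorted by Cxcr4, the receptor for the chemokine Cxcl12, into Cxcr4+ (3 libraries) and Cxcr4- macrophages (3 libraries), and the labels give both groups the same tissue, strain and tumour model. Cxcr4 was a sorting criterion and not an engineered allele. No source used here gives the age of the mice, the tumour line or the number of animals behind a library, and the p-values therefore reflect variation among these libraries that may be technical. Transcripts of Cxcr4 itself were at 9.18, 9.04 and 9.59 FPKM in Cxcr4+ libraries, against 8.56, 5.97 and 7.73 FPKM in Cxcr4- libraries. All Cxcr4+ libraries lay above the Cxcr4- libraries, but the log2 fold change was 0.27 with SE 0.19 and an edgeR adjusted p of 0.999, so the RNA of the sorting marker was present in both groups.

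Matrix metalloproteinases are endopeptidases that hold a zinc ion in their active site and cut collagens, laminin, fibronectin, elastin and many cytokines. Most are secreted as inactive proenzymes, whose prodomain blocks the zinc until it is removed, while Mmp14 is anchored in the plasma membrane. The Timp proteins inhibit the active enzymes by inserting their amino terminus into the catalytic cleft. In tumours, metalloproteinases are made by macrophages, neutrophils, fibroblasts and tumour cells, and they are known for remodelling the matrix and for releasing growth factors bound in it.

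The stretch of coding sequence that specifies the zinc-binding site is shown for each of the 7 enzymes, since it defines the family and shows how far the transcripts differ. The codons of the 3 histidines that hold the zinc are in capitals. The sequences were read 5′ to 3′ from GENCODE M21 transcripts.
Mmp9: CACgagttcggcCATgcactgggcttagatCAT
Mmp2: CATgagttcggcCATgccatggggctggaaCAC
Mmp14: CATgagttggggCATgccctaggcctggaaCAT
Mmp19: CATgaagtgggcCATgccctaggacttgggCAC
Mmp13: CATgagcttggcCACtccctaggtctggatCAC
Mmp12: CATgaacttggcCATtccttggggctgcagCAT
Mmp8: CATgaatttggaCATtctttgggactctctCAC

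Between pairs of enzymes, 20 to 27 of these 33 bases were identical, the closest pair being Mmp2 and Mmp14. Over the whole transcripts, none of the 10 genes shared a stretch of 50 bases with another gene of the family, that is 0 shared stretches for each. The inhibitors are shown over the first codons of the mature protein, where the capitals mark the codon of the amino-terminal cysteine that reaches the zinc of the enzyme.
Timp1: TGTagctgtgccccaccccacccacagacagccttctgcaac
Timp2: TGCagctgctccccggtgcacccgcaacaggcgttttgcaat
Timp3: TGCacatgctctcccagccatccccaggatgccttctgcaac

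The libraries held 46444934 to 55740671 estimated counts, and 19457 to 20433 genes had a count above 0. Low counts often came in multiples of 4, so a floor of 12 counts per library was used for detection. Macrophage genes were abundant in every library, with 5337 to 7797 FPKM (fragments scaled to transcript length and library size, a level that can be compared between genes) for Lyz2 and 70.1 to 94.5 FPKM for Csf1r. The complement genes C1qa and C1qb, which many tissue macrophages express, were low. C1qa had 29, 25 and 23 counts in Cxcr4+ libraries, against 0, 4 and 8 in Cxcr4- libraries (edgeR, unadjusted p = 0.0364, adjusted p = 0.998). C1qb had 84, 27 and 12 counts in Cxcr4+ libraries, against 4, 4 and 0 in Cxcr4- libraries (edgeR, unadjusted p = 0.0093, adjusted p = 0.953). For both genes the groups did not overlap, as for 5.5% of all tested genes in that direction, and no Cxcr4- library exceeded the floor. C1qc had 76, 19 and 4 counts in Cxcr4+ libraries, against 0, 4 and 0 in Cxcr4- libraries. Its groups overlapped and it was not tested. Mrc1 had 35, 12 and 8 counts in Cxcr4+ libraries, against 0, 8 and 0 in Cxcr4- libraries, and was not tested. Of the 12 macrophage markers 10 were tested, 6 positive and 4 negative. Mertk went the other way, with 1.79, 1.33 and 1.57 FPKM in Cxcr4+ libraries, against 1.94, 2.02 and 1.88 FPKM in Cxcr4- libraries. Its groups did not overlap (edgeR, unadjusted p = 0.101, adjusted p = 0.999), as for 4.87% of all tested genes in that direction. Cxcr4+ replicate 1 stood apart in the sum of its fibroblast transcripts and was the highest library for 8 of the 9 tested markers. The largest parts of its sum were Acta2, at 9.88 FPKM, and Col1a1, at 5.83 FPKM. Thy1 was little above Cxcr4- replicate 1, at 0.222 against 0.215 FPKM. Fap went the other way, at 0.175 against 0.404 FPKM in Cxcr4- replicate 1. The summed FPKM of 12 fibroblast markers was 21.3, 3.91 and 5.69 in Cxcr4+ replicates 1, 2 and 3, and 2.52, 6.06 and 5.10 in Cxcr4- replicates 1, 2 and 3. The fibroblast genes Lum (0 counts in every library), Dcn and Dpt were at or under the floor throughout. Of the 12 neutrophil markers S100a9, Camp and Ngp were at 0 counts in every library and 7 were at or under the floor throughout, while the list summed to 7.49 to 9.94 FPKM in Cxcr4+ and 7.79 to 11.5 FPKM in Cxcr4- libraries. Epithelial or tumour markers, 8 genes, summed to 1.24 to 2.52 FPKM in Cxcr4+ and 2.35 to 4.84 FPKM in Cxcr4- libraries, with a negative log2 fold change for each of the 7 tested; their part in the lower means of Mmp9 and Mmp19 was not tested.

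The 10 genes covered a wide range of levels. Mmp9 averaged 20.2 ± 3.20 FPKM (SD, n = 6 libraries) and Mmp19 10.8 ± 1.53 FPKM, and Mmp9 exceeded Mmp19 in 6 of 6 libraries with ranges that did not overlap. These 2 enzymes supplied 95.3 to 99.2% of the summed FPKM of the 7 enzymes. Timp1 followed at 2.77 ± 1.39 FPKM and exceeded Timp2, at 0.738 ± 0.857 FPKM, in 6 of 6 libraries, although their ranges overlapped. Below these, Timp2 exceeded Timp3 (0.405 ± 0.452 FPKM) in 4 libraries, Timp3 exceeded Mmp2 (0.218 ± 0.196 FPKM) in 4, Mmp2 exceeded Mmp14 (0.158 ± 0.191 FPKM) in 5 and Mmp14 exceeded Mmp13 (0.140 ± 0.0979 FPKM) in 3, so these neighbours did not differ beyond their spread. Mmp12 and Mmp8 were near 0.

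**Figure D1:**
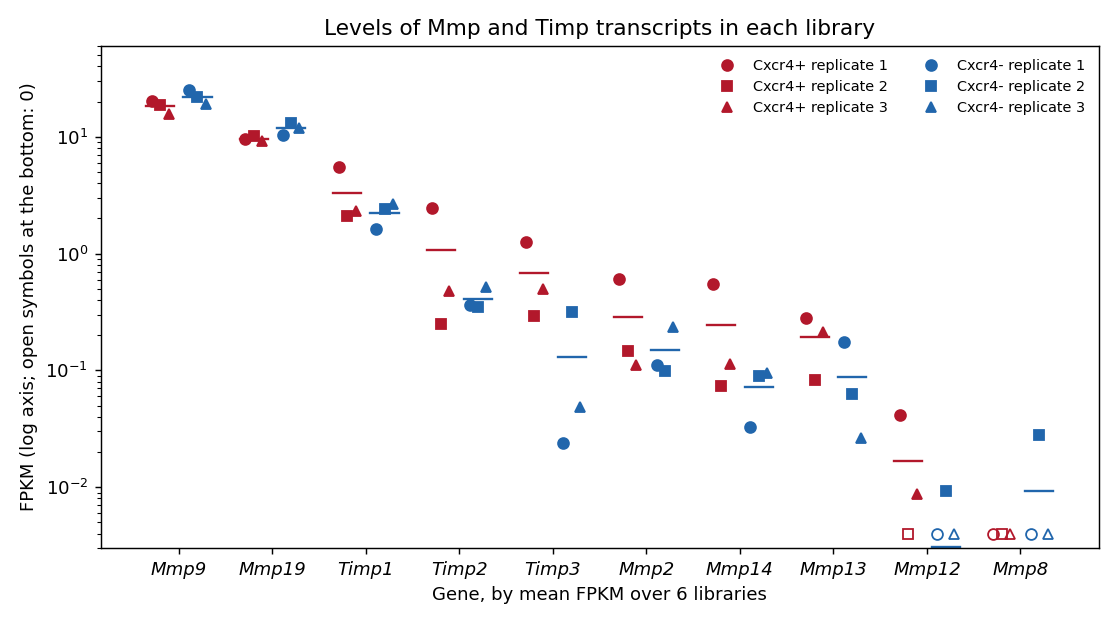
FPKM of each gene on a log axis in the 3 Cxcr4+ and the 3 Cxcr4- libraries, with group means as bars and values of 0 as open symbols at the bottom. Mmp9 and Mmp19 lie above 9 FPKM in every library, while Cxcr4+ replicate 1 is the highest of the 6 points for Timp1, Timp2, Timp3, Mmp2, Mmp14, Mmp13 and Mmp12.

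The comparison of Cxcr4+ with Cxcr4- macrophages asked whether the sorted populations differ in these transcripts. Of the 10 genes, 8 passed the filter on low counts and were tested, and 0 of them passed an adjusted p of 0.05 in edgeR's quasi-likelihood test, where 0.0312% of the 16031 tested genes did in either direction, 0.0125% higher and 0.0187% lower. At an unadjusted p under 0.05 the test gave 2 of the 8, Mmp19 lower and Timp3 higher, beside 4.85% of all tested genes. DESeq2 and limma-trend also passed 0 of the 8. Mmp9 and Mmp19 had lower means in Cxcr4+ libraries, and the other 6 tested genes had higher means there, each with its highest level in Cxcr4+ replicate 1. Mmp12 exceeded the floor in 1 library and Mmp8 in 0.

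Mmp9, gelatinase B, degrades denatured collagen and basement membrane collagen and is the gelatinase best known from leukocytes. The gene lies on chromosome 2 at 164782700 to 164797770, forward strand, in GRCm39, the build of the deposited gene positions. It had 20.4, 18.9 and 15.7 FPKM in Cxcr4+ replicates 1, 2 and 3, against 25.2, 22.0 and 19.2 FPKM in Cxcr4- replicates 1, 2 and 3, from 3283 to 5069 counts. The groups overlapped, since Cxcr4+ replicate 1 lay above Cxcr4- replicate 3. The means were 18.3 ± 2.38 FPKM in Cxcr4+ and 22.1 ± 3.04 FPKM in Cxcr4- libraries (SD, n = 3 each), a ratio of 0.829. The log2 fold change was -0.28 (SE 0.14, 95% interval -0.62 to 0.06, adjusted p = 0.999 by edgeR). It was -0.38 without Cxcr4+ replicate 1, with an interval of -0.75 to -0.01, and ended nearest 0, at -0.14, without Cxcr4- replicate 1. Neutrophils also make Mmp9. Of the 12 neutrophil markers 4 were tested, 1 positive and 3 negative; S100a8 had 4.99 to 8.01 FPKM in Cxcr4+ and 5.55 to 8.08 FPKM in Cxcr4- libraries. Cxcr2, a chemokine receptor of neutrophils, had 0.0577, 0.229 and 0.177 FPKM in Cxcr4+ libraries, against 0.297, 0.847 and 0.336 FPKM in Cxcr4- libraries. Its groups did not overlap (edgeR, unadjusted p = 0.0225, adjusted p = 0.998), as for 4.87% of all tested genes in that direction. Csf3r, the positive marker, averaged 1.31 FPKM in Cxcr4+ and 1.21 FPKM in Cxcr4- libraries. Cebpe averaged 0.748 and 0.855 FPKM, and the groups of both overlapped. The part of neutrophil RNA in the values of Mmp9 was not tested.

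Mmp19, a secreted enzyme that acts on basement membrane components, was the second most abundant. It lies on chromosome 10 at 128626779 to 128636693, forward strand. Its level was 9.57, 10.2 and 9.26 FPKM in Cxcr4+ libraries, against 10.4, 13.2 and 11.96 FPKM in Cxcr4- libraries, from 1929 to 2613 counts. All 3 Cxcr4+ libraries lay below all 3 Cxcr4- libraries, with 10.2 as the highest Cxcr4+ and 10.4 as the lowest Cxcr4- value. Groups did not overlap in this direction for 4.87% of the tested genes, in the opposite direction for 5.5% and in either direction for 10.4%. The mean was 9.67 ± 0.472 FPKM in Cxcr4+ and 11.9 ± 1.42 FPKM in Cxcr4- libraries (SD, n = 3 each). The log2 fold change was -0.30 (SE 0.10, 95% interval -0.52 to -0.07, unadjusted p = 0.0155, adjusted p = 0.953 by edgeR) and -0.31 without Cxcr4+ replicate 1. Among the 10 genes, Mmp19 alone had groups that did not overlap. It overlaps Tmem198b on the opposite strand, which had 355 to 544 counts, and no source used here says whether strand was used in counting, so reads of the pair cannot be told apart.

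Timp1 inhibits most secreted metalloproteinases and is known to bind the proenzyme of Mmp9. It lies on chromosome X at 20736405 to 20740974, forward strand. Its level was 5.52, 2.09 and 2.30 FPKM in Cxcr4+ libraries, against 1.64, 2.41 and 2.65 FPKM in Cxcr4- libraries. Cxcr4+ replicate 1 was 2.08 times the next highest library, and the other 2 Cxcr4+ libraries lay within the Cxcr4- range. The log2 fold change was 0.57 (SE 0.42, 95% interval -0.42 to 1.55, adjusted p = 0.999 by edgeR) and -0.041 without Cxcr4+ replicate 1, with the mean of the remaining Cxcr4+ libraries at 2.19 FPKM. Timp1 lies within the span of Syn1 on the opposite strand, and Syn1 had 57 to 112 counts, beside 84 to 310 for Timp1.

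Timp2 inhibits metalloproteinases broadly and also links Mmp14 to the proenzyme of Mmp2, which Mmp14 then activates. It lies on chromosome 11 at 118191895 to 118246566, reverse strand. It had 2.48, 0.251 and 0.478 FPKM in Cxcr4+ libraries, against 0.360, 0.348 and 0.516 FPKM in Cxcr4- libraries. Cxcr4+ replicate 1 was 4.805 times the next highest library, and Cxcr4+ replicate 2 was the lowest of all. It differed by 1.40 on the log2 scale (SE 0.79, 95% interval -0.44 to 3.24, adjusted p = 0.999 by edgeR) and -0.17 without Cxcr4+ replicate 1.

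Timp3 binds to the extracellular matrix and inhibits metalloproteinases and the sheddase Adam17. It lies on chromosome 10 at 86136236 to 86185370, forward strand. Its counts were 645, 140 and 238 in Cxcr4+ libraries, against 12, 145 and 22 in Cxcr4- libraries, and its levels were 1.25, 0.293 and 0.494 FPKM against 0.0240, 0.317 and 0.0482 FPKM. Cxcr4- replicates 1 and 3 were the lowest, and the groups overlapped because Cxcr4- replicate 2 lay above Cxcr4+ replicate 2. The log2 fold change was 2.42 (SE 0.92, 95% interval 0.27 to 4.57, unadjusted p = 0.0318, adjusted p = 0.998 by edgeR). It was 1.61 when Cxcr4+ replicate 1 was left out and 4.12 when Cxcr4- replicate 2 was left out, and passed the threshold in neither fit. The gene on the opposite strand across it, Syn3, had 8 to 40 counts.

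Mmp14, the membrane type collagenase that activates pro-Mmp2, lies on chromosome 14 at 54669069 to 54678722, forward strand. It had 208, 26 and 41 counts in Cxcr4+ libraries, against 12, 30 and 31 in Cxcr4- libraries, that is 0.545, 0.0728 and 0.112 FPKM against 0.0329, 0.0891 and 0.0947 FPKM. Cxcr4+ replicate 1 was 4.84 times the next highest library, and Cxcr4- replicate 1, at the floor, was the lowest. Its log2 fold change was 1.75 (SE 0.82, 95% interval -0.15 to 3.66, adjusted p = 0.999 by edgeR) and 0.35 without Cxcr4+ replicate 1.

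Mmp2, gelatinase A, is the substrate of Mmp14 in that activation and is made mainly by fibroblasts in most tissues. It lies on chromosome 8 at 93553919 to 93580048, forward strand. It had 129, 30 and 23 counts in Cxcr4+ libraries, against 22, 19 and 42 in Cxcr4- libraries, that is 0.606, 0.147 and 0.112 FPKM against 0.111, 0.0987 and 0.234 FPKM. Again Cxcr4+ replicate 1 stood above the rest, at 2.59 times the next highest library, while the remaining libraries of the groups overlapped. On the log2 scale it differed by 0.95 (SE 0.73, 95% interval -0.75 to 2.65, adjusted p = 0.999 by edgeR) and -0.21 without Cxcr4+ replicate 1.

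Mmp13, a collagenase that cuts fibrillar collagen and takes the main part of that task in rodents, lies on chromosome 9 at 7272514 to 7283331, forward strand. It had 47, 13 and 34 counts in Cxcr4+ libraries, against 27, 10 and 4 in Cxcr4- libraries. The groups overlapped, since Cxcr4- replicate 1 lay above Cxcr4+ replicate 2, and all 3 Cxcr4+ libraries but only 1 of 3 Cxcr4- libraries exceeded the floor. The log2 fold change was 1.06 (SE 0.80, 95% interval -0.80 to 2.92, adjusted p = 0.999 by edgeR). Leaving out Cxcr4+ replicate 1 gave 0.69, and leaving out Cxcr4- replicate 1 gave 2.04.

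Mmp12, the macrophage elastase, and Mmp8, the neutrophil collagenase, did not pass the filter on low counts and were not tested. Mmp12 (chromosome 9, 7344381 to 7369499, forward strand) had 20, 0 and 4 counts in Cxcr4+ libraries, against 0, 4 and 0 in Cxcr4- libraries, and only Cxcr4+ replicate 1 exceeded the floor. Mmp8 (chromosome 9, 7558457 to 7568486, forward strand) had 0 counts in each Cxcr4+ library, against 0, 4 and 0 in Cxcr4- libraries, so a difference was not detectable at this depth. The floor covers counting error only.

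Cxcr4+ replicate 1 held the highest FPKM for 7 of the 10 genes, and for 6 of the 8 tested, where it was the highest library for 13.95% of all tested genes. Relative to the mean of the Cxcr4- libraries, its level was 9.66 for Timp3, 7.54 for Mmp14, 6.07 for Timp2, 4.09 for Mmp2, 3.18 for Mmp13 and 2.47 for Timp1, beside 4.68 for the summed fibroblast markers. Mmp9 and Mmp19 stood at 0.922 and 0.806 in the same library. The part of fibroblast RNA in the values of Timp1, Timp2, Timp3, Mmp2, Mmp13 and Mmp14 was not tested. In bulk RNA, more cells of a type and more RNA per cell cannot be told apart.

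**Figure D2:**
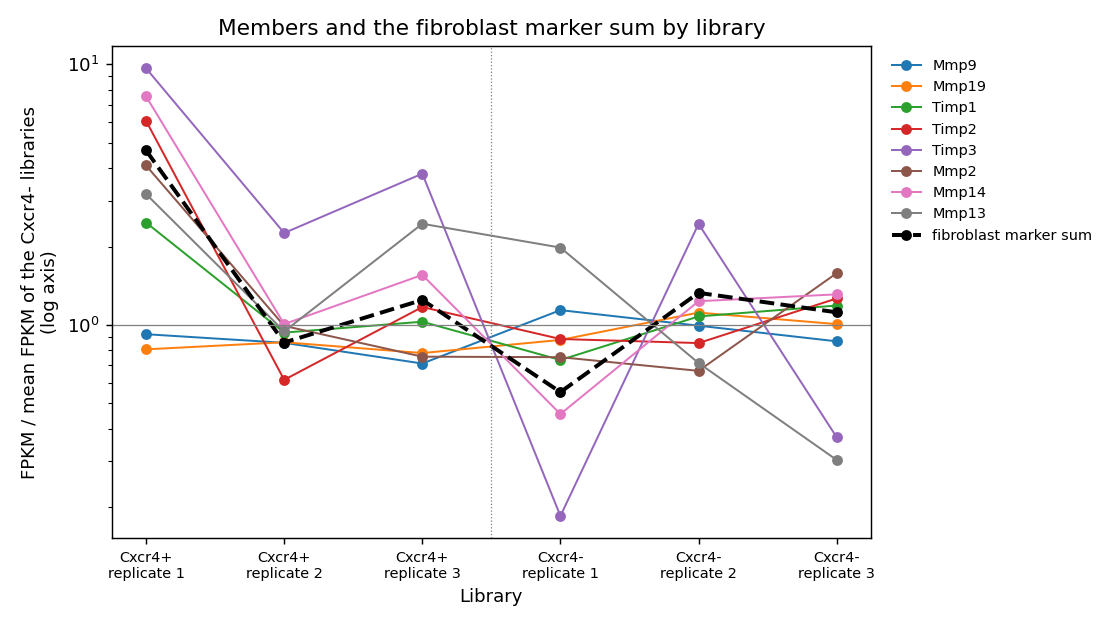
FPKM of the 8 tested genes and of the summed fibroblast markers (dashed), each divided by its mean over the 3 Cxcr4- libraries, on a log axis for the 6 libraries; lines only join the points of 1 gene. Timp3, Mmp14, Timp2, Mmp2, Mmp13 and Timp1 lie between 2.47 and 9.66 in Cxcr4+ replicate 1, while Mmp9 and Mmp19 stay below 1 there.

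**Figure D3:**
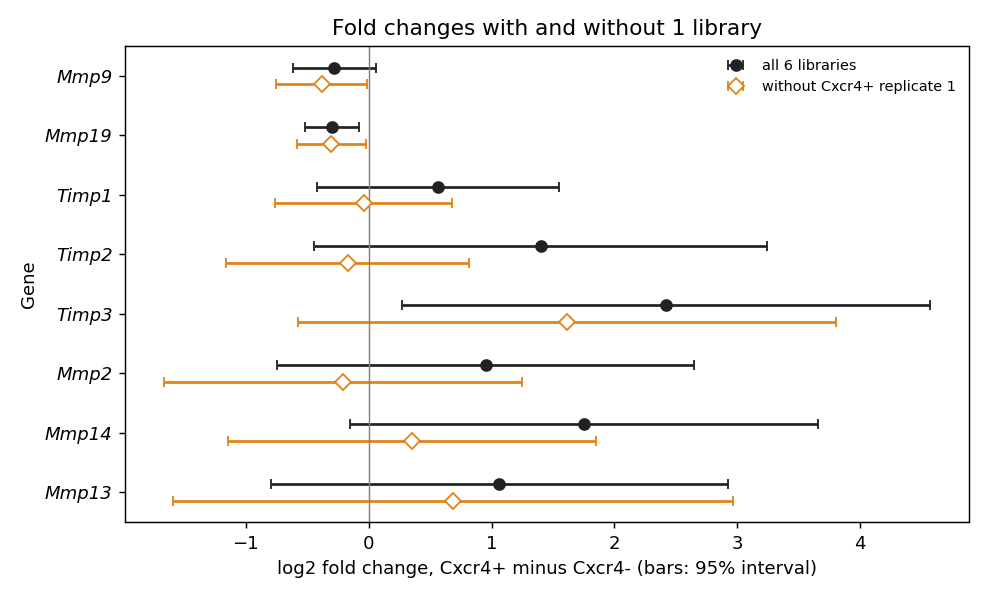
Log2 fold change of Cxcr4+ minus Cxcr4- macrophages with its 95% interval from edgeR, in all 6 libraries (filled) and without Cxcr4+ replicate 1 (open). Without that library Mmp9 and Mmp19 moved to -0.38 and -0.31, while Timp1, Timp2 and Mmp2 lay below 0 with intervals that span 0.

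The promoters of the tested genes that were highest in Cxcr4+ replicate 1 are shown where the RefSeq table for GRCm38.p6 has them. They are given as the 250 bases before the start, 5′ to 3′ on the strand of the gene. That table held 7 of the 10 genes; Mmp2, Mmp9 and Mmp19 were not among them. The motifs searched on both strands were the GC box GGGCGG, the AP-1 site TGANTCA, the TATA box TATAAA and the ETS core CCGGAAG, and matches are in capitals. A GC box was present in Timp1 (chrX:20869916-20870165, forward), Timp2 (chr11:118355412-118355661, reverse), Timp3 (chr10:86300162-86300411, forward) and Mmp14 (chr14:54431348-54431597, forward), and in 32.7% of 32851 promoters. Mmp14 held 2 such boxes side by side, but the bases after the start of its entry did not match a GENCODE M21 transcript of Mmp14. Mmp13 (chr9:7272264-7272513, forward) held no GC box, but an AP-1 site and a TATA box, which 6.75% and 12.4% of promoters hold. The AP-1 site of Mmp13 lay 35 to 29 bases before the start, and 1 of the 2 Mmp12 windows of the table also held an AP-1 site.
Timp1: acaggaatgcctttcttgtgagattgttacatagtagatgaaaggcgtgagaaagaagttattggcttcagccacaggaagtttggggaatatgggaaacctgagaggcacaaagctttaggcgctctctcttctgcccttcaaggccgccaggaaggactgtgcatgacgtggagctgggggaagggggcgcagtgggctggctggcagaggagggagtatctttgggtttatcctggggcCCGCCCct
Timp2: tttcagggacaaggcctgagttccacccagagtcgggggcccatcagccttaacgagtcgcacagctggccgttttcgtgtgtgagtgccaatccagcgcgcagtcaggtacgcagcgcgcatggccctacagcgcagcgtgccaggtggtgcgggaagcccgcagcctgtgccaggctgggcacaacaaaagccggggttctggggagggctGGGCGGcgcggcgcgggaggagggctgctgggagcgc
Timp3: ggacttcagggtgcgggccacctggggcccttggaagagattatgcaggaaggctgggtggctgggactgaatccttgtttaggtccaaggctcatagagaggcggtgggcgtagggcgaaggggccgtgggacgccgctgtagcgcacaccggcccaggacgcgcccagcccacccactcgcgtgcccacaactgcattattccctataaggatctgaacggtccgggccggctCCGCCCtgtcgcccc
Mmp14: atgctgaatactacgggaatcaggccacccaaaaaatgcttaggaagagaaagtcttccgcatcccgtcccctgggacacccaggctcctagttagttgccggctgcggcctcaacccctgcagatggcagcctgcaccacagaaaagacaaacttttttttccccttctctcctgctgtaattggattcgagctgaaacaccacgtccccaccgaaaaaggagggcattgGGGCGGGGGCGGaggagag
Mmp13: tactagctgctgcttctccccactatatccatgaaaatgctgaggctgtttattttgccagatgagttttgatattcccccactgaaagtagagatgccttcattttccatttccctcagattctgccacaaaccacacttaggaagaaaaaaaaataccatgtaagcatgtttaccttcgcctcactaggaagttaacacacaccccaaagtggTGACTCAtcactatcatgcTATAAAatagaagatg

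The balance of enzyme to inhibitor RNA was followed within each library. The summed FPKM of the 7 enzymes was 31.4, 29.4 and 25.4 in Cxcr4+ libraries, against 36.0, 35.5 and 31.5 in Cxcr4- libraries, a range that did not overlap but with a gap of 31.4 to 31.5. The summed FPKM of the 3 inhibitors was 9.26, 2.63 and 3.27 in Cxcr4+ libraries, against 2.02, 3.07 and 3.22 in Cxcr4- libraries, and these groups overlapped. Timp1 supplied 59.7, 79.3 and 70.3% of the inhibitor sum in Cxcr4+ libraries, against 81.0, 78.4 and 82.5% in Cxcr4- libraries. The ratio of the sums was 7.45 ± 3.90 in Cxcr4+ and 13.03 ± 4.19 in Cxcr4- libraries (SD, n = 3 each), with overlapping values. Among single pairs, Mmp9 over Timp1 was 3.69, 9.05 and 6.85 in Cxcr4+ libraries, against 15.4, 9.13 and 7.22 in Cxcr4- libraries. Mmp14 over Timp2 was 0.220, 0.290 and 0.235 in Cxcr4+ libraries, against 0.0912, 0.256 and 0.184 in Cxcr4- libraries. Thus Mmp14 RNA stayed below Timp2 RNA in all 6 libraries, including Cxcr4+ replicate 1, where both were at their highest. Mmp2 over Timp2 was 0.245, 0.585 and 0.234 in Cxcr4+ libraries and 0.309, 0.284 and 0.454 in Cxcr4- libraries. These ratios combine the genes chosen here and were not tested.

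**Figure D4:**
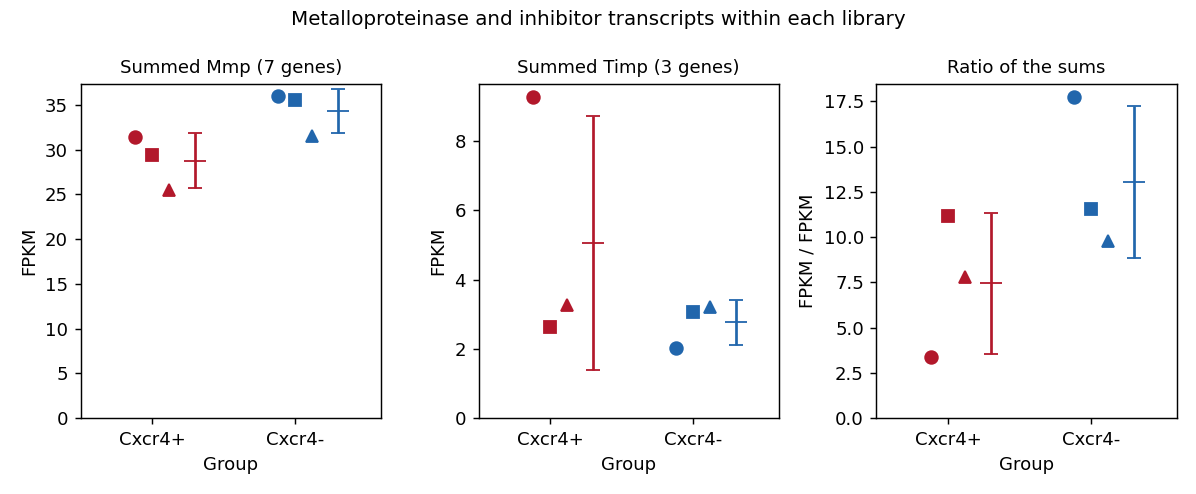
Summed FPKM of the 7 enzymes, summed FPKM of the 3 inhibitors and the ratio of the sums in each Cxcr4+ and Cxcr4- library, with the mean and SD of 3 libraries beside the points. The inhibitor sum of Cxcr4+ replicate 1, at 9.26 FPKM, lies apart from the other 5 libraries, which reach 3.27 at most, and its ratio of 3.40 is the lowest.

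Proteins that activate, bind or clear metalloproteinases were read from a list of 28 genes that includes the plasminogen activator system and the cathepsins. Among its 19 tested genes, 10 were positive and 9 negative, the median log2 fold change being 0.13 beside 0.00041 for all tested genes. Of these, 0 passed an adjusted p of 0.05 by edgeR, by DESeq2 or by limma-trend. At an unadjusted p under 0.05 the edgeR test gave 3 of the 19, beside 4.85% of all tested genes. Lcn2, a lipocalin that binds siderophores and forms a complex with Mmp9, had 450, 342 and 538 FPKM in Cxcr4+ libraries, against 897, 630 and 687 FPKM in Cxcr4- libraries. All 3 Cxcr4+ libraries lay below the Cxcr4- libraries, with a log2 fold change of -0.74 (SE 0.22, adjusted p = 0.953 by edgeR). Plaur, the receptor for urokinase, had 6.36, 8.44 and 5.55 FPKM in Cxcr4+ libraries, against 5.29, 5.39 and 5.04 FPKM in Cxcr4- libraries, a log2 fold change of 0.36 with SE 0.15 (edgeR, adjusted p = 0.999). Ctsl, a lysosomal cysteine protease, had 202, 217 and 206 FPKM in Cxcr4+ libraries, against 178, 192 and 170 FPKM in Cxcr4- libraries. It differed by 0.21 on the log2 scale (SE 0.07, adjusted p = 0.993 by edgeR), again with groups that did not overlap. Lcn2, Plaur and Ctsl were named for the smallest p in the list. Groups also did not overlap for Plaur and Itgb3, beside 10.4% of all tested genes in either direction. Ctsb, of the highest mean in the list, had 675 ± 69.5 FPKM in Cxcr4+ and 570 ± 74.5 FPKM in Cxcr4- libraries (SD, n = 3 each). The protease inhibitors A2m and Tfpi2 were at 0 counts in every library, and the membrane inhibitor Reck did not exceed the floor in any.

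The rest of the family was mostly at or near 0 counts. Of the other 17 Mmp and Timp genes, 8 were at 0 counts in every library, among them Mmp1a, Mmp1b and Timp4, and 12 did not exceed the floor in any. Mmp28 had 0 counts in each Cxcr4+ library, against 24, 0 and 35 in Cxcr4- libraries. Mmp7, matrilysin, had 0 counts in each Cxcr4+ library, against 0, 0 and 29 in Cxcr4- libraries. Mmp15 had 7, 0 and 6 counts in Cxcr4+ libraries, against 8, 22 and 12 in Cxcr4- libraries. Mmp11 had 15, 0 and 5 counts against 3, 7 and 0, and exceeded the floor only in Cxcr4+ replicate 1. All of these were named after their values were seen. Mmp23 alone was tested, at 0.472, 0.272 and 0.335 FPKM in Cxcr4+ libraries, against 0.660, 0.490 and 0.711 FPKM in Cxcr4- libraries, a log2 fold change of -0.80 with SE 0.35 (edgeR, adjusted p = 0.999). Of 15 Adam and Adamts genes, whose proteins cut membrane proteins and proteoglycans, 9 were tested, 5 positive and 4 negative, and 0 passed by edgeR, DESeq2 or limma-trend, with 0 at an unadjusted p under 0.05. Adam8, a metalloproteinase of leukocyte membranes, had 317 ± 10.6 FPKM in Cxcr4+ and 343 ± 38.2 FPKM in Cxcr4- libraries (SD, n = 3 each). Adamts1, Adamts5 and Adam19, those of smallest p, had means of 0.159, 0.0299 and 0.0538 FPKM in Cxcr4+ libraries, against 0.0891, 0.0060 and 0.0148 FPKM in Cxcr4- libraries. Cxcr4+ replicate 1 was the highest library for each of them. Adamts5 exceeded the floor in 2 libraries and Adam19 in 3. The log2 fold change of Adamts1 was 0.82, and 0.41 without Cxcr4+ replicate 1.

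Substrates of the enzymes were read from a list of 27 genes, mostly matrix proteins, which shares Col1a1, Col1a2, Col3a1 and Dcn with the fibroblast markers. Of 23 tested, 21 were positive, the median log2 fold change being 1.69, and 9 had an unadjusted p under 0.05, beside 4.85% of all tested genes, while 0 passed an adjusted p of 0.05 by edgeR or limma-trend. DESeq2 passed 2, Sparc and Col6a1. Cxcr4+ replicate 1 was the highest library for 20 of the 23, and without it the median over these genes was 0.35 with 18 positive. The fibroblast markers were also high in that library, in part because the lists share genes. Without it the median of the 9 tested fibroblast markers was -0.079, with 4 positive. The part of fibroblast RNA in the substrate values was not tested. Sparc, a matrix glycoprotein, had 5.20, 1.80 and 1.44 FPKM in Cxcr4+ libraries, against 0.797, 0.612 and 0.681 FPKM in Cxcr4- libraries. Col6a1, a chain of a collagen that links cells to the matrix, had 1.299, 0.407 and 0.331 FPKM in Cxcr4+ libraries, against 0.0600, 0.174 and 0.161 FPKM in Cxcr4- libraries. Col3a1, a fibrillar collagen chain, had 1.42, 0.276 and 0.354 FPKM in Cxcr4+ libraries, against 0.0954, 0.202 and 0.179 FPKM in Cxcr4- libraries. The groups did not overlap for these 3 genes, which were named for the smallest p in the list, and overlapped for the other 20 tested substrates. Among all tested genes, groups did not overlap for 5.5% in this direction and for 10.4% in either. Spp1, the substrate of highest level, had 28500.4 ± 2163 FPKM in Cxcr4+ and 26202 ± 2526 FPKM in Cxcr4- libraries (SD, n = 3 each).

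The genes whose levels followed those of the 3 most abundant members most closely were sought among 6303 genes that averaged 5 FPKM or more, by Pearson's r of log2 CPM (counts scaled to library size) over the 6 libraries. Mmp9 was followed by the ribosomal protein pseudogene Rps2-ps8 (r = 0.982), whose reads may be shared with Rps2, Hps5 (0.980) and Adam15 (0.975), another metalloproteinase of the cell membrane. Mmp19 was followed by Sfxn3 (0.994), Wdr13 (0.982) and Qdpr (0.979). Timp1 was followed by Atf6b (0.946), Washc4 (0.942) and Ro60 (0.930). These are the highest of 6303 values each and describe the 6 libraries only, which share their depth and groups.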

How the data were processed

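RNA of 6 sorted macrophage libraries was measured by sequencing, and the group of each library was taken from the labels. The submitters' processing notes name GRCm39 as build and StringTie, HISAT2 and cutadapt as tools; no source used here gives versions, counting settings or strand. For 53647 genes the authors deposited an estimated count, already a whole number, and an FPKM value, per the file headers. Of the counts from 1 to 20, 43.2% were multiples of 4, so a floor of 3 fragments, or 12 counts, was used. The deposited FPKM of 0.0001 where the count is 0 was read as 0.

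Counts were fitted with edgeR 4.0.16 (quasi-likelihood, earlier dispersion method) in R 4.3.3 after filterByExpr (minimum count 10, minimum total 15; 16031 genes kept) and with TMM scaling; group was the only model term, Cxcr4+ minus Cxcr4-, and Benjamini-Hochberg adjustment over all tested genes. Standard errors were derived from the fold change and F (its absolute value divided by the root of F). The fit was tested on simulated data. Every pair of libraries differed beyond sampling noise, with chi-square to degrees of freedom of 10.8 to 29.5 after dividing counts by 4. The members, lists and settings were chosen with earlier results of these data known. Besides the members, the naming rule took from each list the gene of highest mean and the 3 of smallest p, and the 3 genes most like each of the 3 most abundant members; marker lists, from which single genes were named after their values were seen, are given as sums and floor counts. Alternatives were DESeq2 1.42.0, limma 3.58.1 (limma-trend) on log2(FPKM + a pseudocount of 0.1, 1 or 5), other scalings, filters and dispersion methods, a replicate block and leaving out libraries. Sequences came from RefSeq (GRCm38.p6) and GENCODE M21; coordinates of genes are those of the deposited table. Figures were drawn with matplotlib 3.10.9.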

Additional observations from a re-analysis of the deposited data

How the results depend on the processing

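Across 17 alternatives 0 of the 10 genes passed the threshold in any. Of 133 refitted values of the 8 tested genes, 130 kept their direction and their side of the threshold. The 3 that reversed did so without Cxcr4+ replicate 1: Mmp2 at -0.21, Timp1 at -0.041 and Timp2 at -0.17 on the log2 scale, because the library with their highest level was absent. Leaving out single libraries, their ranges were -0.21 to 1.44, -0.041 to 0.83 and -0.17 to 1.88. With counts divided by 4, Mmp2, Mmp13 and Mmp14 failed the filter and gave no value. The adjusted p ran from 0.295 (Timp3, with the libraries numbered 2 left out) to 0.99996. A higher pseudocount lowers the fold change of low genes by construction.

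The labels' replicate numbers were not taken to pair the libraries, because the labels state no pairing. Deviations from the group means of same-numbered libraries correlated at 0.0292, 0.123 and 0.0343 over the tested genes. Differently numbered libraries correlated at -0.0768 to 0.0482. Cxcr4+ replicates 2 and 3 correlated best with their own number, while Cxcr4+ replicate 1 correlated best with Cxcr4- replicate 3, at 0.0482. Chi-square to degrees of freedom was 15.2 between Cxcr4+ replicate 2 and Cxcr4- replicate 2. It was 29.5 and 25.8 between Cxcr4+ replicate 2 and Cxcr4+ replicates 1 and 3. The other numbers went the other way. Cxcr4+ replicate 1 was at 16.3 to Cxcr4- replicate 1 and 14.4 to Cxcr4- replicate 3. Cxcr4- replicate 3 was nearest to Cxcr4- replicate 1, at 10.8. With the replicate block, 0 genes were higher and 0 lower past the threshold, and Timp3 had 2.79 and Timp2 0.70. At an unadjusted p under 0.05 the block gave 1495 genes, against 777 in the main edgeR fit. Whether same-numbered libraries share an origin was not tested. Over all genes, the main edgeR fit gave 2 higher (Snora7a and H2ac18) and 3 lower (Nek7, Smyd4 and Eif4h) past the threshold, named here after their values were seen. DESeq2 gave 27 higher and 36 lower, and 2 substrate genes where the edgeR test gave 0. Higher genes numbered 1 with counts divided by 4, 1 with limma-trend on log2(FPKM + 5) and 1 with edgeR's bias-adjusted method. Lower genes numbered 1 with library totals alone, 1 with limma-trend on log2(FPKM + 0.1), 0 on log2(FPKM + 1) and 0 on log2(FPKM + 5). Leaving out each library gave 0 to 5 higher and 0 to 4 lower; the causes were not tested. Low counts kept Mmp8 and Mmp12 from being tested.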
